A study of Homo sapiens with 8 samples.

Results

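The proteasome genes of AB8 cells, a human line derived from podocytes, were compared between cells with and without an induced CRB2 construct. CRB2 is a Crumbs family membrane protein that takes part in cell polarity. Members were the protein-coding genes whose symbol starts with PSMA, PSMB, PSMC, PSMD, PSME, PSMF or PSMG followed by a number, and 1 such symbol ending in IP was left out. The rule gave 48 of the 58395 genes in the count table. Coordinates and identifiers follow GENCODE 29 on GRCh38. By role the members were 15 constitutive core genes (8 of the alpha ring and 7 of the beta ring), 4 genes of the immunoproteasome and thymoproteasome, and 17 cap genes (6 ATPases and 11 other subunits). The rest were 5 activator or inhibitor genes and 7 assembly genes.

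All cells of both groups carried the construct pIND21_hCrb2+GFP_S267A, which encodes human CRB2 with the S267A change together with GFP, and were at passage 3 to 8 after this modification. Induced cells had been given doxycycline for 48 h (4 libraries), and non-induced cells were at 0 h without the drug (4 libraries). Both groups use the replicate numbers 1 to 4. No cells given doxycycline without the construct, or induced for unmodified CRB2, were among these 8 libraries, so the drug, CRB2, the S267A change and GFP cannot be told apart. Nothing in the labels says that the replicates came from separate cultures. The p-values thus cover only the spread between these libraries, which may be technical.

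The proteasome degrades proteins that carry ubiquitin chains. Its core particle is a stack of alpha and beta rings, and the proteolytic sites lie in the beta rings. The regulatory cap binds ubiquitin chains, removes them and unfolds the substrate with a ring of ATPases. In immune cells, and in other cells exposed to interferon, the catalytic beta subunits can be exchanged for immunosubunits, which change the peptides made for antigen presentation. Podocytes do not normally divide, and the ubiquitin-proteasome system has been studied in them as a route of protein turnover.

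Counted reads summed to 19008593, 23081616, 21240294 and 19347540 in induced libraries 1 to 4, against 19668898, 21731488, 21697296 and 16829454 in non-induced libraries 1 to 4. The 48 genes took 0.642% to 0.710% of the reads in induced libraries and 0.704% to 0.740% in non-induced libraries. CRB2 itself was at 1734 to 4599 CPM (read counts relative to a library total scaled by the TMM method) in induced libraries and at 8.31 to 26.4 CPM in non-induced libraries. Both libraries numbered 1 stood apart from the rest of their groups. Same-numbered libraries deviated from their group means together, with correlations across genes of 0.849, 0.529, 0.493 and 0.421 for numbers 1 to 4. The highest correlation with a differently numbered library was -0.465, 0.491, 0.491 and 0.290 in the same order. Deviations from a group mean sum to 0 within the group, so the -0.465 is partly fixed by the 0.849 and is no separate evidence of pairing. By the same-number values the pairing was clearest for number 1, and numbers 2 and 3 were hardly told apart. Each result is therefore given from a fit without a block and, where the call differs, also from one in which the replicate number is a block. Of 10 podocyte markers, 6 had enough reads to test, and NPHS1, which encodes the slit diaphragm protein nephrin, averaged 0.0238 CPM in induced and 0.0124 CPM in non-induced libraries. This defining podocyte gene was thus near 0, while the summed podocyte list lay at 1133 to 1271 CPM in induced and 1057 to 1351 CPM in non-induced libraries, most of it from ACTN4 and CD2AP.

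Most proteasome mRNAs had slightly lower values in induced cells than in non-induced cells. Of the 46 genes with enough reads to test, 38 had a negative and 8 a positive log2 fold change (induced over non-induced), with a median of -0.07 and a range of -0.40 to 0.12. The median was -0.02 without induced library 1 and -0.04 without both libraries numbered 1. The median over all 15637 tested genes was 0.000593, and the median size of change without regard to sign was 0.103. In the fit without a block, 0 of the 46 passed an adjusted p of 0.05 in edgeR's quasi-likelihood test, 0 passed in DESeq2, and 4 (8.70%) had an unadjusted p under 0.05 (PSMB3, PSMB4, PSMB7 and PSMB10). Over all tested genes 0.0384% were called in that fit and 9.38% had an unadjusted p under 0.05, so the share of members at that level was near the background. When the replicate number was a block, 9 of the 46 (19.6%) fell and 0 rose, beside 6.29% of all tested genes that fell and 7.51% that rose. The 9 were PSMA7, PSMB3, PSMB4, PSMB6 and PSMB7 of the core, the immunosubunit PSMB10, the cap subunit PSMD2, the activator subunit PSME1 and the assembly gene PSMG3. The background share depends on the filter: with the block 984 of all 15637 tested genes fell and 1175 rose. In a fit of genes that reached 10 CPM in 4 libraries, 905 of 9852 fell and 1091 rose, and 9 members fell. That background, with low-count genes left out, is higher than the 6.29% set beside each class below. Without both libraries numbered 1, the fit without a block called 543 of all tested genes and 0 of the members. The count of 9 rests on all 4 pairs of libraries: it was 3 without the pair numbered 1, 6 without number 2, 4 without number 3 and 1 without number 4. Of all tested genes, 913 of 15769 fell without number 1 and 851 of 15624 without number 2. Without number 3 it was 548 of 15640, and without number 4 it was 482 of 15841. The share of members that fell was thus near that of all tested genes without number 1 or number 4. PSMA8, an alpha subunit of the testis, and PSMB11, the beta subunit of the thymus, had 0 reads in all 8 libraries, which allows up to 0.130 to 0.178 CPM.

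**Figure D1:**
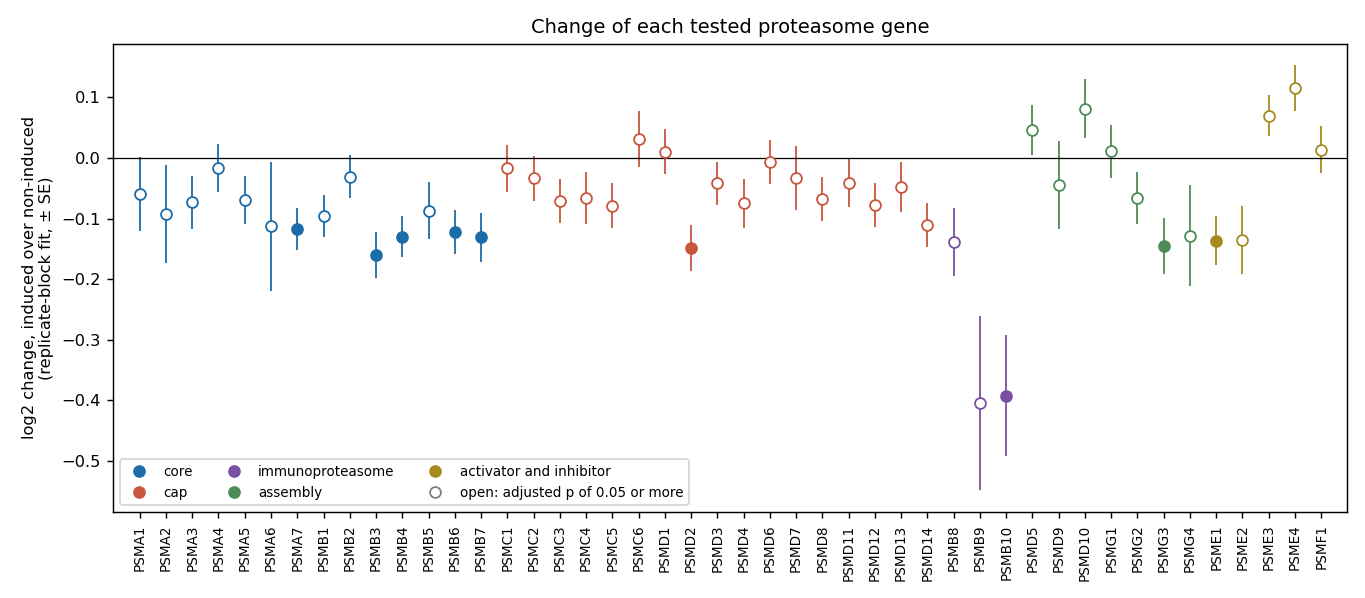
Log2 fold change (induced over non-induced, with its standard error) of the 46 tested proteasome genes in the fit with the replicate block, grouped by role. Filled points passed an adjusted p of 0.05 (9 genes, all negative), and all points of the core lie below 0 while the activator and assembly genes lie on both sides.

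Counts of pairs need no model. Within the 4 same-numbered pairs, 14 of the 46 genes were lower in the induced library in 4 of 4 pairs, beside 17.0% of all tested genes, and 2 (PSME3 and PSME4) were higher in 4 of 4, beside 18.6%. The groups did not overlap for 4 genes that were lower in induced libraries (PSMB3, PSMB4, PSMB6 and PSMB7), beside 3.22% of all tested genes, and for 0 that were higher, beside 3.82%. The median difference over the 46 genes was -0.149 in the pair numbered 1, -0.0354 in number 2, -0.0171 in number 3 and -0.0527 in number 4 on the log2 scale. All pairs were thus on the negative side, and the pair numbered 1 was farthest from 0. Over all tested genes the same medians were 0.00705, 0.00335, 8.3e-05 and 0.00368.

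The constitutive core gave most of the calls. All 14 tested core genes had a negative log2 fold change, with a median of -0.10. In the fit with the block 5 of 14 (35.7%) fell, beside 6.29% of all tested genes. Summed core mRNA was 2008, 2063, 2141 and 2160 CPM in induced libraries 1 to 4, against 2265, 2159, 2188 and 2329 CPM in non-induced libraries 1 to 4. The highest induced sum, that of library 4, was level with the lowest non-induced sum, that of library 2, and each induced library lay below its own-numbered partner. Without both libraries numbered 1 the core median was -0.05 in the fit without a block.

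Within the core the beta ring held 4 of the 5 calls (57.1% of its 7 genes, beside 6.29% of all tested genes). PSMB3, a non-catalytic beta subunit (ENSG00000277791, chr17:38752736-38764231, plus strand), had 175, 163, 173 and 176 CPM in induced libraries 1 to 4, against 208, 184, 180.2 and 197 CPM in non-induced libraries 1 to 4. All 4 induced values lay below all 4 non-induced values. Its mean was 172 ± 5.90 CPM in induced and 192 ± 12.7 CPM in non-induced libraries (SD, n = 4 each), and its log2 fold change was -0.16 with a standard error of 0.06 and an adjusted p of 0.427 without the block, and -0.16 with a standard error of 0.04 and an adjusted p of 0.0133 with it (edgeR). PSMB4, the beta subunit that closes the assembly of the core from its precursors (ENSG00000159377, chr1:151399534-151401944, plus strand), had 225, 213, 221 and 232 CPM in induced libraries, against 250.2, 234, 241 and 249.6 CPM in non-induced libraries. Its groups were also apart, and it fell by 8.60% in the fit with the block (log2 -0.13 ± 0.03 SE, edgeR adjusted p 0.0191, against 0.439 without the block).

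The catalytic subunits of the beta ring differed in their calls. PSMB6, which carries the caspase-like site (ENSG00000142507, chr17:4796144-4798503, plus strand), had 137, 144, 154 and 154 CPM in induced libraries, against 155, 156, 162 and 167 CPM in non-induced libraries. The groups did not overlap, but induced libraries 3 and 4 came close to the lowest non-induced library. PSMB6 fell in the fit with the block (log2 -0.12 ± 0.04 SE, edgeR adjusted p 0.0372) and not in the fit without it (0.568). PSMB7, which carries the trypsin-like site (ENSG00000136930, chr9:124353466-124415444, minus strand), had 171, 194, 190.4 and 189 CPM in induced libraries, against 203, 200.2, 196 and 215 CPM in non-induced libraries. It also fell with the block (log2 -0.13 ± 0.04 SE, edgeR adjusted p 0.0473, against 0.529 without it). PSMB5, the chymotrypsin-like subunit and the main target of bortezomib (ENSG00000100804, chr14:23016543-23035230, minus strand), had 111, 133, 144 and 137 CPM in induced libraries, against 132, 136, 139 and 150.1 CPM in non-induced libraries. Its groups overlapped, induced library 3 was above its partner, and the gene passed in neither fit (adjusted p 0.863 without and 0.242 with the block). Of the remaining beta genes, PSMB1 was lower in 4 of 4 pairs with an adjusted p of 0.0812 in the fit with the block, and PSMB2 had a log2 fold change of -0.03.

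In the alpha ring, 1 of 7 tested genes (14.3%) was called with the block. That is too few to set apart from the 6.29% of all tested genes that fell. PSMA7, an alpha subunit (ENSG00000101182, chr20:62136735-62143440, minus strand), had 285, 298, 312 and 314 CPM in induced libraries 1 to 4, against 309.9, 323, 325 and 355 CPM in non-induced libraries 1 to 4. Its groups overlapped by induced libraries 3 and 4, and it was lower in all 4 pairs. It fell in the fit with the block (log2 -0.12 ± 0.03 SE, edgeR adjusted p 0.0362) and not in the fit without it (0.591). The other 6 tested alpha genes, which help to form the gated entry ring, had log2 fold changes of -0.12 to -0.02, and none was lower in 4 of 4 pairs.

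**Figure D2:**
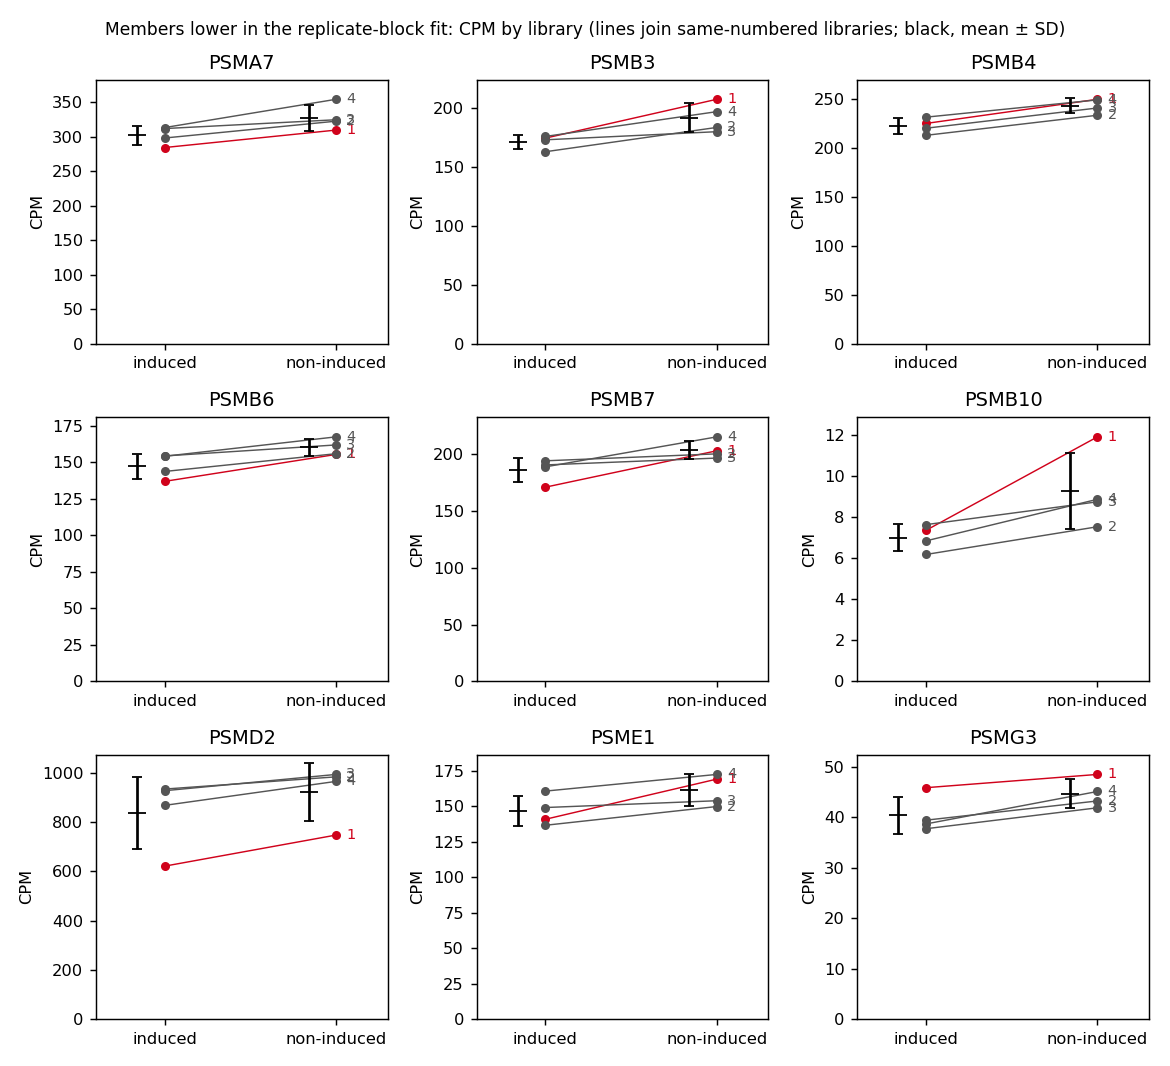
CPM of the 9 proteasome genes that fell in the fit with the replicate block, in induced (left) and non-induced (right) libraries. Lines join libraries of the same number, red marks number 1, and black marks the mean ± SD of 4 libraries. PSMB3, PSMB4, PSMB6 and PSMB7 have groups that do not overlap.

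The immunosubunits PSMB9 and PSMB10 had the largest fold changes of the tested proteasome genes, at low levels. PSMB10, the immunosubunit that replaces PSMB7 (ENSG00000205220, chr16:67934502-67937087, minus strand), had 7.34, 6.17, 7.62 and 6.83 CPM in induced libraries 1 to 4, against 11.9, 7.52, 8.73 and 8.85 CPM in non-induced libraries 1 to 4. These values stand for 145, 141, 160 and 130 reads in induced libraries and 239, 161, 187 and 148 reads in non-induced libraries. Induced library 3 lay above non-induced library 2, so the groups overlapped, but the induced library was lower in all 4 pairs, with differences of -0.688, -0.281, -0.194 and -0.370 on the log2 scale. PSMB10 fell by 23.8% in the fit with the block (log2 -0.39 ± 0.10 SE, edgeR adjusted p 0.0187), and its adjusted p was 0.436 without the block. The call with the block was lost without the pair numbered 1 (adjusted p 0.102), without the pair numbered 4 (0.0685) and in DESeq2 (0.123).

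PSMB9, the immunosubunit that replaces PSMB6 (ENSG00000240065, chr6:32844136-32859585, plus strand), had 8.00, 12.2, 11.4 and 14.6 CPM in induced libraries, against 15.7, 12.0, 15.5 and 17.9 CPM in non-induced libraries. Induced library 1 was the lowest of all 8, and the pair numbered 2 was level. The log2 fold change was -0.40 ± 0.19 SE without the block (edgeR adjusted p 0.562) and -0.41 ± 0.14 SE with it (0.112), so PSMB9 was not called. PSMB8, the immunosubunit that replaces PSMB5 (ENSG00000204264, chr6:32840717-32844703, minus strand), had 58.3, 56.2, 60.5 and 67.3 CPM in induced libraries, against 75.9, 60.2, 62.6 and 68.4 CPM in non-induced libraries. It was lower in 4 of 4 pairs, most in the pair numbered 1, and was not called (log2 -0.14, edgeR adjusted p 0.70 without and 0.121 with the block). The median of the 3 tested immunoproteasome genes was -0.40, and -0.25 without both libraries numbered 1. Summed immunoproteasome mRNA was 73.6, 74.6, 79.5 and 88.7 CPM in induced libraries 1 to 4, against 103.5, 79.7, 86.9 and 95.2 CPM in non-induced libraries 1 to 4. Each induced sum lay below its own-numbered partner, and the groups overlapped.

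Each immunosubunit was also set against the constitutive subunit it replaces, per kilobase of exon in the same library, with the exon length of the basic GENCODE transcripts. PSMB8 stood at 43.6% of PSMB5 in induced and 45.2% in non-induced libraries (geometric means), with log2 ratios of -1.20 ± 0.16 and -1.15 ± 0.18 (SD, n = 4 each). That difference of -0.05 was within the spread between libraries. PSMB9 stood at 7.27% of PSMB6 in induced and 8.94% in non-induced libraries, with log2 ratios of -3.78 ± 0.30 and -3.48 ± 0.21. PSMB10 stood at 3.02% of PSMB7 in induced and 3.60% in non-induced libraries, with log2 ratios of -5.05 ± 0.19 and -4.79 ± 0.28, and was lower in 4 of 4 pairs. The differences, -0.30 and -0.26, were about as large as 1 SD between libraries of 1 group. With the exons of all annotated transcripts the shares were 27.2% in induced and 28.2% in non-induced libraries for PSMB8, 3.62% and 4.45% for PSMB9, and 3.62% and 4.32% for PSMB10. The choice of length moves these shares but not the log2 differences between the groups. In all 8 libraries the constitutive subunit was thus the more abundant mRNA of each pair.

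**Figure D3:**
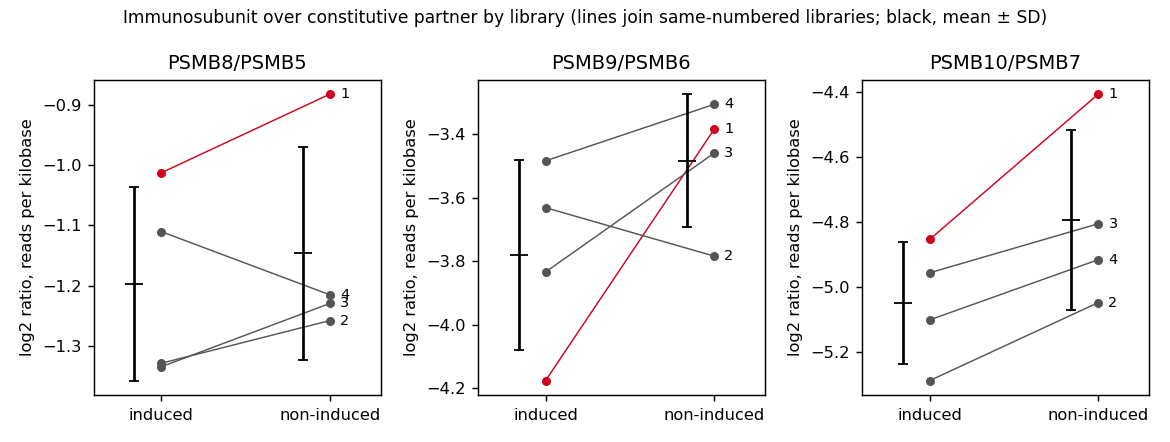
Log2 ratio of each immunosubunit to its constitutive partner (PSMB8 to PSMB5, PSMB9 to PSMB6, PSMB10 to PSMB7), per kilobase of exon, in induced (left) and non-induced (right) libraries. Lines join libraries of the same number, red marks number 1 and black marks the mean ± SD. All ratios lie below 0, and PSMB10 to PSMB7 is lower in the induced library of all 4 pairs.

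Immunosubunits are high in leukocytes, so leukocyte markers were read beside them. In bulk RNA, fewer cells of a type and less RNA per cell cannot be told apart. The 12 leukocyte markers summed to 2.19 to 3.19 CPM in induced libraries and to 3.55 to 4.43 CPM in non-induced libraries, without overlap. TYROBP was at 0 in all 8 libraries and PTPRC, which encodes CD45, had reads in 1 of 8. Only CSF1R and LST1 had enough reads to test, at 1.19 and 0.771 CPM in induced and 1.86 and 1.16 CPM in non-induced libraries (edgeR adjusted p with the block 0.0586 and 0.129). CSF1R and LST1 made up most of the sum in both groups, so its fall does not stand for the whole list. Among the markers with too few reads to test, CD14 and ITGAM had higher means in induced libraries and CD3D a lower one, all with overlapping groups. The part of leukocytes in the values of PSMB8, PSMB9 and PSMB10 was not tested.

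Genes that work with the immunoproteasome in antigen presentation moved in both directions. Of 11 such genes, 0 passed without the block, and with it 2 rose and 2 fell, beside 7.51% and 6.29% of all tested genes. CALR and PDIA3, chaperones of the peptide loading complex that also serve general folding in the endoplasmic reticulum, rose with log2 fold changes of 0.42 (edgeR adjusted p 0.0117) and 0.27 (0.0022). TAPBP, which encodes the loading factor tapasin, fell by 0.23 on the log2 scale (0.0356), and IRF1, a transcription factor of the interferon response, fell by 0.25 on that scale (0.00545). TAP1, a subunit of the peptide transporter whose gene neighbours PSMB9 in the human genome, had a log2 fold change of -0.13 (0.121) and B2M, the light chain of class I molecules, one of -0.09 (0.119).

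The cap had 15 of 17 genes with a negative log2 fold change and a median of -0.05, and 1 gene was called. This share of 5.88% was near the 6.29% of all tested genes that fell with the block. PSMD2, the large scaffold subunit that docks ubiquitin-like domains (ENSG00000175166, chr3:184298709-184309054, plus strand), had 622, 935, 929 and 869 CPM in induced libraries 1 to 4, against 748, 985, 995 and 967 CPM in non-induced libraries 1 to 4. Library 1 was the lowest of its group in both, and the drop between library 1 and the others was larger than the difference between the groups. PSMD2 fell by 9.79% in the fit with the block (log2 -0.15 ± 0.04 SE, edgeR adjusted p 0.0181), while without the block its standard error was 0.14 and its adjusted p 0.868.

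PSMD14, the deubiquitinase that cuts ubiquitin chains from the substrate, had 118, 157, 165 and 161 CPM in induced libraries, against 131, 171, 169 and 178 CPM in non-induced libraries. It was lower in 4 of 4 pairs but passed in neither fit (edgeR adjusted p 0.885 without and 0.0580 with the block). PSMD4, a ubiquitin receptor, had 121, 119, 118 and 121 CPM in induced libraries, against 133, 119, 118 and 136 CPM in non-induced libraries. Its pairs numbered 2 and 3 were level, and its adjusted p was 0.783 without and 0.249 with the block (edgeR). PSMD11, a lid subunit that clamps the cap to the core, had 186, 229.8, 226 and 198 CPM in induced libraries, against 211, 225, 222 and 204 CPM in non-induced libraries. Its direction depended on the libraries numbered 1: the log2 fold change was -0.04 with them and 0.0018 without both.

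None of the 6 cap ATPases was called, and 5 had a negative log2 fold change, with a median of -0.05. PSMC2 had 102, 105, 107 and 111 CPM in induced libraries, against 108, 107, 109 and 109 CPM in non-induced libraries, with an adjusted p of 0.91 without and 0.61 with the block (edgeR). PSMC4 had 107, 123, 121 and 118 CPM in induced libraries, against 125, 120.4, 124 and 121 CPM in non-induced libraries. Apart from the low value in induced library 1, the groups of PSMC4 overlapped widely, and its adjusted p was 0.809 without and 0.348 with the block.

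Most cap genes were low in the library numbered 1 of both groups. Induced library 1 lay below the mean of the other induced libraries in 16 of 17 cap genes, by a median of -0.251 on the log2 scale. Non-induced library 1 lay below the mean of the other non-induced libraries in 13 of 17 cap genes, with a median of -0.106, and those 13 were also lower in induced library 1. The same medians in the core were -0.0413 in induced and 0.0579 in non-induced library 1, and over all tested genes 0.00518 and 0.00881. Of all tested genes, 39.3% lay below the others in both libraries numbered 1. Summed cap mRNA was 2946, 3692, 3732 and 3640 CPM in induced libraries, against 3314, 3802, 3786 and 3804 CPM in non-induced libraries. PSMD2, PSMD14, PSMD1 and PSMC3 had the lowest values against the other libraries among the 17 cap genes, at -0.55, -0.45, -0.41 and -0.38 in induced library 1 and at -0.39, -0.40, -0.31 and -0.29 in non-induced library 1. The cap median of -0.05 became -0.0054 without induced library 1 and -0.02 without both libraries numbered 1.

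**Figure D4:**
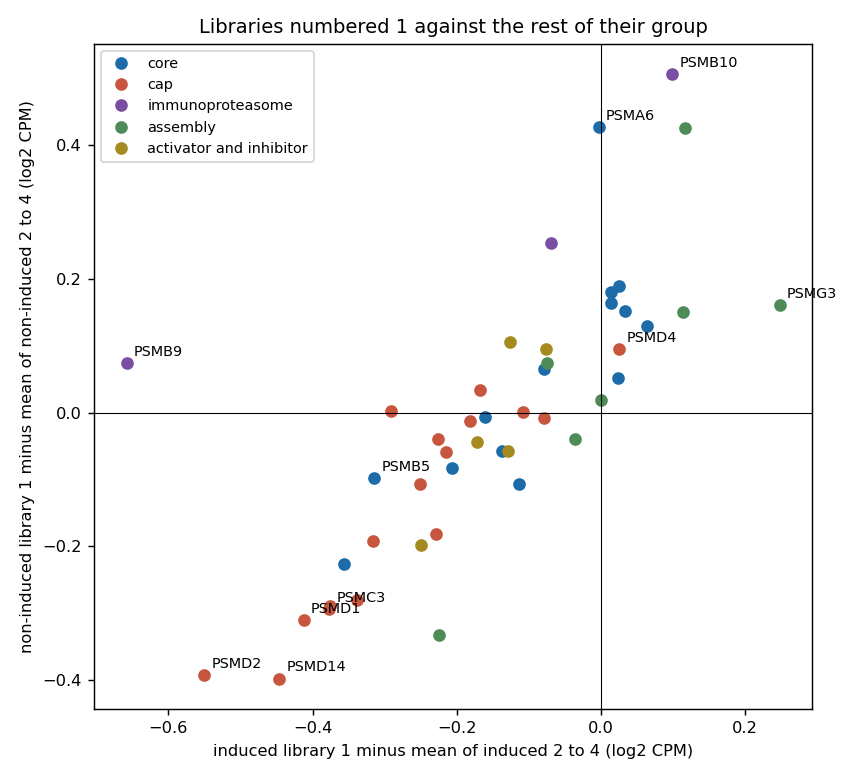
Scatter plot of the 46 tested proteasome genes, coloured by role: log2 CPM of library 1 minus the mean of libraries 2 to 4, for induced libraries on the horizontal axis and for non-induced libraries on the vertical axis. Of the cap genes, 13 of 17 lie in the lower left corner where both are negative, beside 39.3% of all tested genes (not drawn). PSMD2 and PSMD14 lie farthest down, while core genes lie on both sides of 0.

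Activators and the inhibitor did not share a direction. PSME1, a subunit of the interferon-inducible ring that opens the core without ubiquitin (ENSG00000092010, chr14:24136158-24138967, plus strand), had 141, 137, 149 and 161 CPM in induced libraries 1 to 4, against 169, 150.0, 154 and 173 CPM in non-induced libraries 1 to 4. It was lower in all 4 pairs, with overlapping groups, and fell with the block (log2 -0.14 ± 0.04 SE, edgeR adjusted p 0.0377, against 0.618 without it). PSME2, its partner in the same ring, had 74.7, 84.2, 78.3 and 82.2 CPM in induced libraries, against 92.7, 79.5, 84.4 and 95.3 CPM in non-induced libraries. The pair numbered 2 went the other way, and PSME2 was not called although its log2 fold change was also -0.14 (edgeR adjusted p 0.138 with the block).

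PSME3 and PSME4, which encode nuclear activators, were the only tested members that were higher in 4 of 4 pairs, and neither passed the test. PSME3 had 349, 385, 381 and 378 CPM in induced libraries, against 345, 366, 362 and 349 CPM in non-induced libraries (log2 0.07, edgeR adjusted p 0.758 without and 0.192 with the block). PSME4 had 113, 137, 138 and 129 CPM in induced libraries, against 107, 131, 125 and 114 CPM in non-induced libraries (log2 0.12, adjusted p 0.764 without and 0.0542 with the block). PSMF1, the inhibitor PI31, had 161, 183, 179 and 184 CPM in induced libraries, against 171, 183, 175 and 170.5 CPM in non-induced libraries. Its log2 fold change of 0.02 turned negative when induced library 2, induced library 4 or non-induced library 4 was left out. The median of these 5 genes was 0.02, and their summed mRNA was 839, 927, 925 and 935 CPM in induced libraries, against 885, 909.8, 901 and 901 CPM in non-induced libraries. Outside the pair numbered 1, the induced sum was the higher one.

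The assembly genes lay on both sides of 0, with 4 negative and 3 positive log2 fold changes, a median of -0.04 and 1 call. That call (14.3% of 7 genes) is too few to set apart from the 6.29% of all tested genes that fell. PSMG3, a chaperone of alpha ring assembly (ENSG00000157778, chr7:1567330-1571005, minus strand), had 45.9, 39.5, 37.8 and 38.7 CPM in induced libraries, against 48.5, 43.3, 41.9 and 45.2 CPM in non-induced libraries. It was lower in all 4 pairs while induced library 1 lay above the non-induced libraries 2 to 4, and it fell with the block (log2 -0.15 ± 0.05 SE, edgeR adjusted p 0.0489, against 0.642 without it). That call lay just under the threshold and was kept in 4 of 11 other settings. PSMG1 had 72.8, 65.5, 68.0 and 68.3 CPM in induced libraries, against 73.7, 65.8, 61.9 and 71.6 CPM in non-induced libraries, and PSMG2, which forms a dimer with it, had 53.8, 53.4, 56.2 and 55.8 CPM in induced libraries, against 56.2, 58.4, 56.0 and 58.8 CPM in non-induced libraries. Neither was called (edgeR adjusted p 0.988 and 0.762 without the block). PSMG4, the partner of PSMG3, had a log2 fold change of -0.13 and was not called (edgeR adjusted p 0.853 without and 0.351 with the block). The sign of PSMG1, at a log2 fold change of 0.01, flipped to -0.0016 with upper-quartile scaling. The cap chaperones PSMD5 and PSMD10 had log2 fold changes of 0.05 and 0.08, and PSMD9 one of -0.04, none of them called. Summed assembly mRNA was 312, 295, 300.4 and 316 CPM in induced libraries, against 323, 304, 296 and 319 CPM in non-induced libraries. The induced sum was the higher one in the pair numbered 3, and the groups overlapped.

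**Figure D5:**
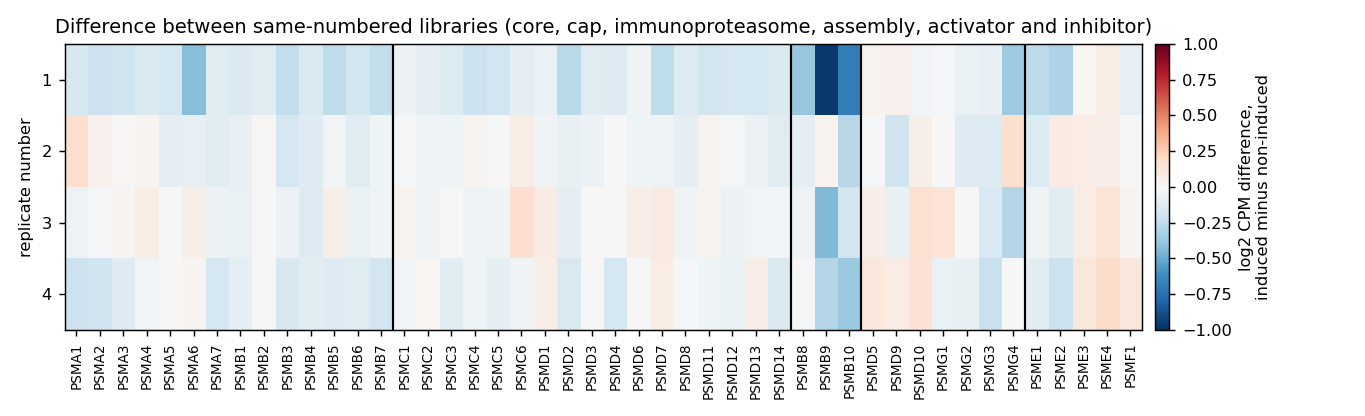
Heat map of the difference in log2 CPM (induced minus non-induced) within each same-numbered pair of libraries: columns are the 46 tested proteasome genes in blocks by role, rows are the replicate numbers, blue is lower and red is higher in the induced library. The darkest blue is PSMB9 in the pair numbered 1, at -0.966, and the core block is blue in most cells while the assembly block holds both colours.

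Per kilobase of exon, the members spanned a wide range of levels. Exon length was that of the basic transcript set of GENCODE unless stated otherwise, and the order depends on this choice. PSMD2, PSMB4 and PSMB3 were highest in non-induced cells, at means of 236 RPKM (CPM divided by exon length in kilobases) in induced and 260 RPKM in non-induced libraries for PSMD2, 231 and 253 RPKM for PSMB4, and 222 and 249 RPKM for PSMB3. In non-induced libraries the SD was 33.1, 8.02 and 16.4 RPKM, so neighbours in that order do not differ beyond their spread. PSMB5 stood at 89.8 RPKM in induced and 95.1 RPKM in non-induced libraries, PSMB8 at 39.1 and 43.1 RPKM, PSMB9 at 12.5 and 16.6 RPKM, and PSMB10 at 5.74 and 7.59 RPKM. Lowest among the tested members was PSMG4, at 3.32 RPKM in induced and 3.65 RPKM in non-induced libraries. With the exons of all annotated transcripts, a length chosen after the data were seen, PSMA7 was highest in non-induced libraries at 187 RPKM, followed by PSMD2 at 169 and PSMB3 at 163 RPKM, PSMB4 was at 113 RPKM, and PSMA6 was lowest at 1.11 RPKM.

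Some of these levels are uncertain because reads can be shared between genes. PSMA1, PSMA2 and PSMA6, whose products are needed in equal amounts with the other alpha subunits, stood at 16.6, 7.85 and 5.03 RPKM in non-induced libraries, against 31.6 to 209 RPKM for the other 4 tested alpha genes. Each of the 3 shares 14.1% to 24.7% of its exon bases with an annotated readthrough gene on the same strand, and the pseudogene PSMA6P1 held 1660 reads over all libraries, against 1121 for PSMA6. Without these 3 genes the core median was again -0.10, with 5 of 11 genes called with the block, beside 6.29% of all tested genes that fell. PSMB10 shares 34.8% of its exon bases with the readthrough gene AC040162.1, which held 266 reads over all libraries, against 1311 for PSMB10. PSMB8 and PSMB9 overlap by 139 bases on opposite strands, and PSMB8 shares 618 bases with the antisense gene PSMB8-AS1. Cap genes also overlap genes on the opposite strand. PSMC1 shares 75.8% of its exon bases with NRDE2 (4442 reads, against 13582 for PSMC1). PSMD7 shares 30.7% with AC009120.2 (515 reads, against 19948), and PSMC5 shares 19.5% with FTSJ3 (30592 reads, against 49450). Whether the counting used the strand is not given in the sources used here, so reads of such partners cannot be told apart.

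Sequences upstream of the starts were read for the elements of 2 known routes of control of proteasome genes. NFE2L1 (also called NRF1) raises proteasome genes when proteasome activity is low, through the antioxidant response element, and interferon raises the immunoproteasome genes through the interferon-stimulated response element. The 250 bases before the start were taken from RefSeq (GRCh38.p14) and matched 42 of the 48 members, all but PSMA7, PSMB1, PSMB6, PSMB7, PSMD4 and PSMG3. Of the 9 members called with the block, 5 were thus among those read. The element core TGACNNNGC, read on both strands, was in 11 of 42 members (26.2%) and in 11.0% of 27305 promoters of that length. The core GAAANNGAA of the interferon-stimulated element, read on both strands, was in 5 of 42 members (11.9%) and in 7.06% of all promoters. These 5 were PSMB4 and PSMB10, which were called with the block, and PSMA4, PSME2 and PSMG4, which were not. The immunosubunits PSMB8 and PSMB9 held no match to this core in the bases read. PSME2 held both, at separate places. A match is a description of these letters only.

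The called members with a match are shown because they are among the falls described above, and PSME2, which was not called, is shown as the partner of PSME1 with a match to both cores. Each line gives 60 bases in the direction of the gene, with the match to either core in capitals. RefSeq starts can lie inside the span that GENCODE gives a gene.

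PSMB3 (TGACNNNGC, chr17:38752611-38752670, plus strand): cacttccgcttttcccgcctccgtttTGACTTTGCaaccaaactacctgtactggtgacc
PSME1 (TGACNNNGC, chr14:24136082-24136141, plus strand): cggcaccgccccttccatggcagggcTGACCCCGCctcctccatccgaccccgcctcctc
PSMB4 (GAAANNGAA, chr1:151399479-151399538, plus strand): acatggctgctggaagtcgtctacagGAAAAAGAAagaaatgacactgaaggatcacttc
PSMB10 (GAAANNGAA, chr16:67936851-67936910, minus strand): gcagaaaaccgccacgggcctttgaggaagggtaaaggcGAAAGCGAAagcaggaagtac
PSME2 (GAAANNGAA, chr14:24146611-24146670, minus strand): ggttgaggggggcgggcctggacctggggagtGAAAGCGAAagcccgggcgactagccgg

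PSMB10 and PSME2 hold the same 9 letters GAAAGCGAA. Matches end 12 and 19 bases before the start in PSMB10 and PSME2, 59 and 95 bases before it in PSMB4 and PSMB3, and 77 bases before it in PSME1. With the TGACNNNGC core 2 of 11 tested genes fell with the block (median log2 -0.0655), and without it 3 of 29 (median -0.0641). With GAAANNGAA 2 of 5 fell (median -0.13), and without it 3 of 35 (median -0.06). Over all tested genes 6.29% fell with the block. The called members without a sequence are in none of these counts by match. Such counts are of few genes and carry no test.

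Of 12 genes that make, process or pair with NFE2L1, 0 were called without the block, and with it 1 fell and 0 rose, a share near the 6.29% of all tested genes that fell. NFE2L1 was at 299 ± 21.3 CPM in induced and 304 ± 2.76 CPM in non-induced libraries (SD, n = 4 each; edgeR adjusted p 0.694 with the block). DDI2, the protease that activates it, and NGLY1, which removes its sugars, had log2 fold changes of 0.12 and 0.11 and were not called. MAFF, which encodes a small Maf protein that dimerises with such factors, was at 45.5 ± 4.45 CPM in induced and 59.1 ± 6.25 CPM in non-induced libraries, without overlap, and fell by 0.37 on the log2 scale with the block (edgeR adjusted p 0.000139, against 0.257 without it). The median of the 12 was 0.03.

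Partners of the proteasome that carry other symbols gave 3 calls. Of 18 such genes, 0 were called without the block, 3 fell and 0 rose with it, and the median was -0.04. Over all tested genes 6.29% fell and 7.51% rose with the block. ADRM1, a ubiquitin receptor of the cap, was at 156 ± 20.6 CPM in induced and 177 ± 21.7 CPM in non-induced libraries, and fell with the block (log2 -0.18, edgeR adjusted p 0.00536). ZFAND5, a proteasome-binding protein known for activating degradation, fell by 0.13 on the log2 scale (0.0280), and AKIRIN2, which guides proteasomes into the nucleus, fell by 0.16 on that scale (0.0452). POMP, the maturation protein of the core, and SEM1, a small lid subunit, had log2 fold changes of -0.13 and -0.10 and were not called (0.0622 and 0.133).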

How the data were processed

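RNA-seq of 8 AB8 libraries was used: total RNA, a directional kit, single reads of 75 bp on a NextSeq instrument. The authors deposited a table of whole-number read counts per Ensembl gene, used here, and a normalized table, not used here. The tools in the submitters' processing notes are HTSeq 0.11.1, HISAT2 2.1.0, Trimmomatic 0.38, DESeq2 1.24.0 and bcl2fastq, on GRCh38 (hg38). Annotation release and strand setting: not given in the sources used here. Of 58395 IDs, 58275 matched GENCODE release 29, which gave names, coordinates (GRCh38) and exon lengths.

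Genes were kept by filterByExpr (minimum count 10), scaled by TMM and compared in all 8 libraries by the quasi-likelihood test of edgeR 4.0.16 (R 4.3.3, limma 3.58.1, robust, two-sided). P-values were adjusted over all 15637 genes by Benjamini-Hochberg at 0.05. The main design had no block. Numbers were taken to pair libraries because all 4 same-number correlations, 0.849, 0.529, 0.493 and 0.421, were above 0.1, though the highest for differently numbered libraries reached 0.491 and no label explains the numbers. The scripts were tested on simulated data. DESeq2 1.42.0, other scalings and filters and left-out libraries were alternatives. Limits for 0 reads stand for 3 counts and cover counting error only.

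The members, lists and tests were chosen with earlier results of these data known. Genes described with full values are the called members plus fixed examples of each role; other genes named were chosen after their values were seen. Values of some genes are not reported here.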

Additional observations from a re-analysis of the deposited data

Results flagged for a closer look

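Within groups of 4 libraries, a value was picked out when its gap to the nearest other library was large against the range of the group (Dixon's 95% criterion), which chance does in about 1 in 20 groups. Of the 92 groups tested over the 46 genes, 8 values met it. Induced library 1 accounted for 5 of these, and all were low: PSMC3 at 180.2 CPM (other induced libraries 231 to 237), PSMC5 at 259.8 CPM (307 to 313), PSMD1 at 191.5 CPM (251 to 262), PSMD12 at 158 CPM (195 to 201) and the core gene PSMB2 at 212 CPM (242 to 247). Non-induced library 1 accounted for another 2, again low: PSMD12 at 178 CPM (other non-induced libraries 203 to 205) and PSMD2 at 748 CPM (967 to 995). Non-induced library 3 was low for the assembly gene PSMD5, at 62.5 CPM (64.9 to 65.2). Thus 6 of the 7 values from libraries numbered 1 were of cap genes.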

How the results depend on the processing

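The number of proteasome genes past the threshold without a block was 0 under every scaling, filter, tool and left-out library tried, and 9 with the replicate block. The count of 9 with the block was 0 at an adjusted p of 0.01, 3 in DESeq2 (PSMB3, PSMB4 and PSMD2) and 1 to 6 with one pair left out, and 6 to 13 under the other settings. Over all tested genes, 537 of 15637 fell in DESeq2 with the block, and 482 to 913 fell with one pair left out. The member calls were all falls, except that PSME4 rose with library totals (edgeR adjusted p 0.0377) and with the 10 CPM filter (0.0422). Among the calls with the block, PSMB3 and PSMD2 were kept in 10 of 11 other settings, PSMB4 in 9 of 11, PSMB10 in 7 of 10, PSMA7, PSMB6, PSMB7 and PSME1 in 6 of 11, and PSMG3 in 4 of 11. Leaving out each library in turn moved the median of all tested members between -0.0923 and -0.0228, that of the cap between -0.0748 and -0.0054, that of the immunoproteasome between -0.498 and -0.259, and that of the assembly genes between -0.0794 and -0.0143. The values nearest 0 for all members and the cap came without induced library 1. Signs turned for genes near 0: PSMD11 ranged from -0.0827 to 0.0136 and was 0.0018 without both libraries numbered 1, PSMF1 ranged from -0.00946 to 0.0528, and PSMG1 ranged from -0.0396 to 0.0477 and was -0.0016 with upper-quartile scaling. The cause was not tested. Depth limits PSMB10 most among the called genes, at 130 to 239 reads a library.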
